A study of Mus musculus with 6 samples.

Results

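Integrin subunit genes were followed across 6 RNA-seq libraries of mouse cortical neuron cultures. The members were 10 genes, 3 beta subunits (Itgb1, Itgb5 and Itgb8) and 7 alpha subunits (Itgav, Itga1, Itga3, Itga4, Itga5, Itga6 and Itga7), found by symbol among the 54232 genes of each count file. All 10 passed the filter on low counts, which kept 17299 genes. The members were chosen with earlier results of these data known, so setting them against all genes is no test. The cells were wildtype cortical neurons of CD1, an outbred mouse stock, and there were 3 groups of 2 libraries, each with a repeat 1 and a repeat 2. By their library names the control is PDL, PA is IKVAV, and PA + PS2 is IKVAV with PEDOT-S. PA stands for peptide amphiphile, a self-assembling scaffold molecule; IKVAV is a peptide sequence taken from laminin, and PEDOT is a conducting polymer. The treatment label reads peptide amphiphile in every group, the control included, and the labels leave PDL and PS2 as abbreviations. They state no age, culture time or dose. Nor do they say whether a repeat was a culture or animal of its own, so the p-values cover the spread between these libraries alone, which may be technical.

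Integrins are receptors made of an alpha and a beta subunit that bind extracellular matrix outside the cell and join it to the actin cytoskeleton inside. Itgb1 pairs with most alpha subunits, among them Itga1 (collagen and laminin), Itga3, Itga6 and Itga7 (laminin), and Itga4 and Itga5 (fibronectin, and Vcam1 for Itga4). Itgav pairs with Itgb1, Itgb5 and Itgb8, and with Itgb8 it releases active TGF-beta from its latent form. In the developing cortex integrins are best known for anchoring radial glia at the pial basement membrane and for neuronal migration.

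Promoter sequences are shown for Itgb1, Itgav and Itgb5, members called in both PA + PS2 comparisons with the repeat block (Itgb1 and Itgav) or with the largest estimate in both (Itgb5), whose upstream windows hold no annotated exon. RefSeq promoters (GRCm38.p6) were matched for 8 of the 10 members; Itga6 and Itga7 had none. Each line gives the 250 bases before the RefSeq start, 5′ to 3′ on the gene's strand, and capitals mark matches to GGGCGG (GC box), TGANTCA (AP-1), GGAATG (TEAD) and CCAAT (NF-Y) on either strand. The windows are chr8:128685404-128685653 (plus strand) for Itgb1, chr2:83724147-83724396 (plus strand) for Itgav and chr16:33829415-33829664 (plus strand) for Itgb5.
Itgb1: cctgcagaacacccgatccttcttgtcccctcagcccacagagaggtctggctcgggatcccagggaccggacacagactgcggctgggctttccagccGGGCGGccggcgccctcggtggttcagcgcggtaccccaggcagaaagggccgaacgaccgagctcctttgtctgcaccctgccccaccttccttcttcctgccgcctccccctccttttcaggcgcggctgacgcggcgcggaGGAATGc
Itgav: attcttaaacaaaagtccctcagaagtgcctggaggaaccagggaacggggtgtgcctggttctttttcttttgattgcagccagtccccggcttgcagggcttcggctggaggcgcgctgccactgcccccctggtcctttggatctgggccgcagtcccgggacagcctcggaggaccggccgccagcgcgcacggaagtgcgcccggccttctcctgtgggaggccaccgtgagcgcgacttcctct
Itgb5: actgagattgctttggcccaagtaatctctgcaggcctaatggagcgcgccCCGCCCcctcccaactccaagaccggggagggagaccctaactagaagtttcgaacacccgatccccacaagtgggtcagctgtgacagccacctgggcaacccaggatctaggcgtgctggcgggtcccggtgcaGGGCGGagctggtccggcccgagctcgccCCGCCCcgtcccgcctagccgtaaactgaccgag
The Itgb1 window held 1 GC box match and 1 TEAD match, the Itgb5 window 3 GC box matches, and the Itgav window none of the 4 motifs. No 2 of these matches overlapped. Of all 32851 RefSeq windows of the same length, 32.7% held the GC box letters, 6.75% the AP-1 letters, 12.6% the TEAD letters and 33.8% the NF-Y letters. The 3 windows shared a high GC content, 68% in Itgb1, 64.4% in Itgav and 65.2% in Itgb5. A match is a description of the letters and says nothing about binding.

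Libraries held 30714311 to 33923681 counts, so 1 CPM (counts scaled to a common library size with TMM factors) stands for 30.7 to 33.9 counts. The labelled cell type was carried by its markers: 7 neuronal markers, such as Map2 and Tubb3, summed to 5296 to 5875 CPM per library, and 7 microglial and macrophage markers to 3.09 to 5.52 CPM, with 6 of these 7 under 1 CPM in every library. Of the 7 neuronal markers, 3 (Snap25, Syt1 and Gad1) had both PA + PS2 libraries below both control libraries. Markers of other cells also differed between the groups. In PA + PS2, oligodendrocyte precursor markers summed to 7.77 and 6.56 CPM, against 32.4 and 79.7 in the control and 23.6 and 120 in PA, with 4 of 5 markers lower in both PA + PS2 libraries than in either control library. Neural progenitor markers summed to 212 and 238 CPM in PA + PS2, 276 and 449 in the control and 323 and 559 in PA. Markers of cycling cells summed to 22.5 and 21.7 CPM in PA + PS2, 47.0 and 98.5 in the control and 53.6 and 136 in PA, with 4 of 4 lower without overlap in both comparisons. Mural and fibroblast markers summed to 87.1 and 37.0, 123 and 147, and 157 and 92.4 CPM in the same order of groups. Astrocyte markers summed to 29.9 and 42.6, 44.2 and 99.2, and 56.3 and 187 CPM, and endothelial markers to 5.16 and 4.67, 8.93 and 7.35, and 10.3 and 6.25 CPM. None of these markers was at 0 in all 6 libraries. Against the control, 4 of 7 progenitor, 5 of 7 mural and fibroblast, 3 of 7 astrocyte and 2 of 6 endothelial markers were lower without overlap. Against PA the counts were 4, 4, 4 and 2 in that order. Over all genes tested, 17.1% were lower without overlap against the control and 18.4% against PA. The astrocyte marker S100b was higher without overlap in both comparisons. Oligodendrocyte markers were the exception in direction, at 65.3 and 95.0 CPM in PA + PS2 against 34.3 to 48.1 CPM in the other 4 libraries. The part of these cells in the integrin values was not tested, and in such bulk samples fewer cells of a type and less RNA per cell cannot be told apart.

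Itgb1 was the most abundant member per exon length, followed by Itgb8 and Itga3. Divided by merged exon length, the level over all 6 libraries was 26.9 CPM per kb for Itgb1, 9.89 for Itgb8, 6.33 for Itga3, 3.09 for Itga6, 2.48 for Itgb5 and 1.35 for Itgav. The low members followed with 0.540 CPM per kb for Itga5, 0.191 for Itga1, 0.116 for Itga7 and 0.110 for Itga4. Itgb1 lay above Itgb8 in every library and Itga3 above Itga6, with ranges that did not overlap. The ranges of all other neighbours in this order overlapped over the 6 libraries, and Itga7 exceeded Itga4 in 2 of the 6. Exon lengths are those of all annotated transcripts merged, so a gene with long alternative ends, such as Itga1 (18.6 kb), gets a lower value per kb than its main transcript would.

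**Figure D1:**
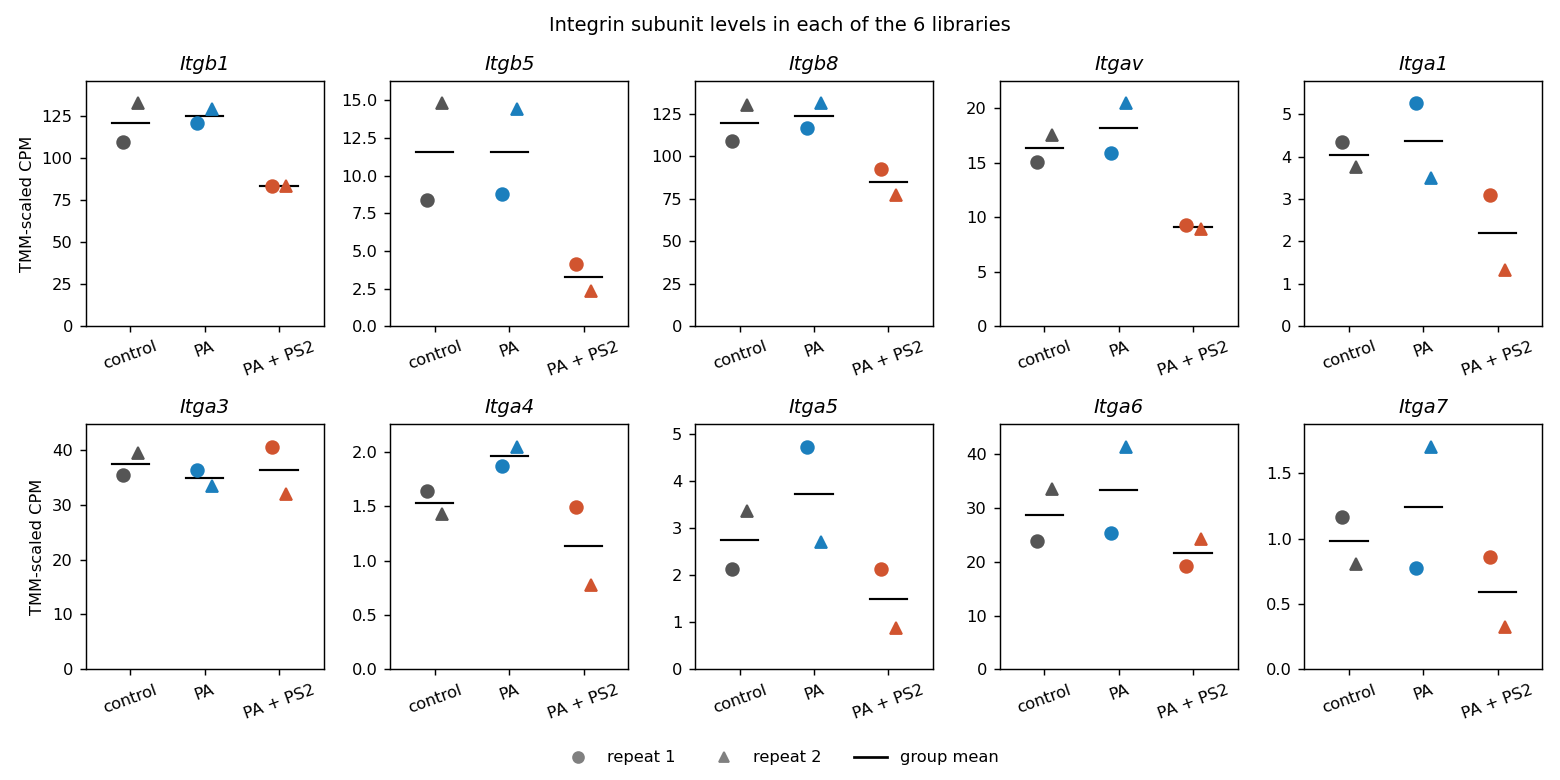
TMM-scaled CPM (linear axes from 0, a separate scale per gene) of the 10 integrin subunits in control, PA and PA + PS2, with circles for repeat 1, triangles for repeat 2 and a bar for the group mean of 2 libraries. Both PA + PS2 points lie below all 4 others for Itgb1, Itgb5, Itgb8, Itgav, Itga1 and Itga5. For Itga5 the repeat 1 points of PA + PS2 and the control are level (2.13 and 2.14 CPM). Itga3 stays between 31.9 and 40.6 CPM in every group.

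With PA alone, no integrin subunit passed the threshold against the control, and the libraries of 9 of the 10 overlapped. Itgb1, the shared beta subunit, was at 109 and 132 CPM in the control and 121 and 129 in PA, so that the groups overlapped. Itga6, a laminin-binding alpha subunit, was at 23.9 and 33.5 CPM in the control and 25.3 and 41.3 in PA. Itga4, which binds fibronectin and Vcam1, was the 1 member of 10 whose PA libraries (1.87 and 2.05 CPM) both lay above the control libraries (1.64 and 1.43 CPM), a pattern that 12.1% of all genes tested had in that direction. No member had both PA libraries below both controls, which 9.71% of all genes had.

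The median log2 fold change (PA over control) of the 10 members was 0.13, against 0.01 over all genes tested, and 1 of the 10 was below 0, against 47.6% of all genes. Estimates ran from -0.10 for Itga3 to 0.43 for Itga5, with standard errors of 0.10 (Itgb1) to 0.52 (Itga7). None of the 10 passed edgeR's quasi-likelihood test over all genes, where 0 of 17299 genes did, and none had an unadjusted p under 0.05. DESeq2, limma-voom and edgeR with the repeat number as a block also called 0 members. DESeq2 with the block called 0 members and 0.00578% of all genes, lower. Within repeats 1 and 2, 6 of the 10 members changed sign: Itga5 differed by 1.12 in repeat 1 and -0.30 in repeat 2 on the log2 scale, and Itga7 by -0.55 and 1.03. Missing the threshold does not show that PA left these genes alike: the estimate for Itga6 was 0.22 ± 0.27 (SE).

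In PA + PS2, Itgb1 and Itgav fell against the control when the repeat number was in the model, and 9 of the 10 members lay below the control within both repeats, as did 28% of all genes tested. Itga3 was the exception. Itga5 is among the 9 and among the members without overlap, although its repeat 1 libraries were level. They were at 2.13 CPM in PA + PS2 and 2.14 in the control. The largest estimate was that of Itgb5, a partner of Itgav in binding vitronectin. In 6 members both PA + PS2 libraries lay below both control libraries, as in 17.1% of all genes tested. Without the repeat number in edgeR's model none of the 10 passed.

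Itgb1 (chromosome 8, 128685654 to 128733200, plus strand, GRCm38) was at 109 and 132 CPM in the control and 83.3 and 83.4 in PA + PS2. The means were 121 ± 16.3 and 83.3 ± 0.0736 CPM (SD, n = 2), and the PA + PS2 libraries lay below both controls. The log2 fold change was -0.53 ± 0.08 (SE) with the block (edgeR adjusted p = 0.0183) and -0.54 ± 0.10 without it (adjusted p = 0.446). DESeq2 called Itgb1 without the block (adjusted p = 0.00426) and with it (adjusted p = 0.000117).

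Itgav (chromosome 2, 83724397 to 83806916, plus strand), the alpha subunit of the vitronectin receptors, was at 15.1 and 17.5 CPM in the control and 9.30 and 8.93 in PA + PS2. The means were 16.3 ± 1.75 and 9.11 ± 0.264 CPM (SD, n = 2). Its log2 fold change was -0.83 ± 0.15 with the block (edgeR adjusted p = 0.0343) and -0.84 ± 0.18 without it (adjusted p = 0.479), and DESeq2 called it in both forms (adjusted p = 0.0115 and 0.00282). Of its exon length, 5.90% is shared with Gm13684 on the opposite strand, so a small part of its counts is uncertain.

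Itgb5 (chromosome 16, 33829665 to 33949338, plus strand) was at 8.36 and 14.8 CPM in the control and 4.14 and 2.34 in PA + PS2, or 11.6 ± 4.54 and 3.24 ± 1.28 CPM (SD, n = 2). The groups did not overlap, and the log2 fold change was -1.80 ± 0.33 with the block (edgeR adjusted p = 0.0574) and -1.83 ± 0.43 without it (adjusted p = 0.529). DESeq2 called it without the block (adjusted p = 0.00136), and its adjusted p in DESeq2 with the block was 0.131. Its 2 control libraries were further apart than those of Itgb1 or Itgav, with repeat 2 above repeat 1 by 0.82 on the log2 scale.

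Itgb8 (chromosome 12, 119158022 to 119238802, minus strand), the partner of Itgav in releasing TGF-beta, was at 109 and 130 CPM in the control and 92.4 and 77.3 in PA + PS2. Both PA + PS2 libraries were lower, with a log2 fold change of -0.49 ± 0.11 with the block (edgeR adjusted p = 0.0925). In DESeq2 it passed with the block (adjusted p = 0.00836), and its adjusted p without the block was 0.0547.

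Among alpha subunits that bind laminin, Itga3, Itga6 and Itga7 passed neither in edgeR nor in DESeq2, with or without the block. Itga3 (chromosome 11, 95044474 to 95076801, minus strand), known from migrating cortical neurons, was at 35.3 and 39.4 CPM in the control and 40.6 and 31.9 in PA + PS2, with the control inside the range of PA + PS2. Its log2 fold change was -0.04 ± 0.13 without the block. Itga6 (chromosome 2, 71745616 to 71858416, plus strand) was at 23.9 and 33.5 CPM in the control and 19.1 and 24.2 in PA + PS2, so the groups overlapped, although PA + PS2 was lower within each repeat (-0.32 and -0.47, log2). The block estimate for Itga6 was -0.40 ± 0.12 (edgeR adjusted p = 0.163). Itga7 (chromosome 10, 128933818 to 128958282, plus strand), at 1.16 and 0.804 CPM in the control and 0.860 and 0.325 in PA + PS2, rested on 10 to 39 counts in these 4 libraries.

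The fibronectin and collagen receptors were low. Itga5 (chromosome 15, 103344286 to 103366763, minus strand), the classical fibronectin receptor subunit, was at 2.14 and 3.36 CPM in the control and 2.13 and 0.877 in PA + PS2. The repeat 1 libraries of Itga5 were therefore level and the gap came from repeat 2, where the log2 difference was -1.87. Itga1 (chromosome 13, 114953096 to 115101964, minus strand), a collagen and laminin receptor subunit, was at 4.35 and 3.75 CPM in the control and 3.09 and 1.33 in PA + PS2, with a block estimate of -0.88 ± 0.28 (edgeR adjusted p = 0.209). Itga4 (chromosome 2, 79255426 to 79333123, plus strand) was at 1.64 and 1.43 CPM in the control and 1.5 and 0.779 in PA + PS2, and the groups overlapped. Counts in these 4 libraries ran from 24 (Itga4) to 146 (Itga1). Of the exon length of Itga4, 8.04% is shared with Cerkl on the opposite strand, and 3.68% of that of Itga1 with the same-strand Gm49395.

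Over the 10 members, the median log2 fold change of PA + PS2 against the control was -0.63 with all 10 below 0. The median over all genes tested was 0.01, and 48.1% of them were below 0. Given how the members were chosen, this contrast is no test. With the block, edgeR called 2 of 10 members, both lower, where it called 0.538% of all genes lower. Without the block edgeR called 0 of 10 and 0 of 17299 genes, with 4 members at an unadjusted p under 0.05. DESeq2 called 3 of 10 members lower without the block (Itgb1, Itgav and Itgb5), beside 0.636% of all genes. With the block DESeq2 also called 3 (Itgb1, Itgav and Itgb8), beside 1.37% of all genes lower. Limma-voom, run without the block, called 0. The call of Itgb1 with the block was lost without control 1 (adjusted p = 0.0643), without control 2 (0.765) or without PA + PS2 2 (0.616), and that of Itgav likewise (0.279, 0.761 and 0.796).

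**Figure D2:**
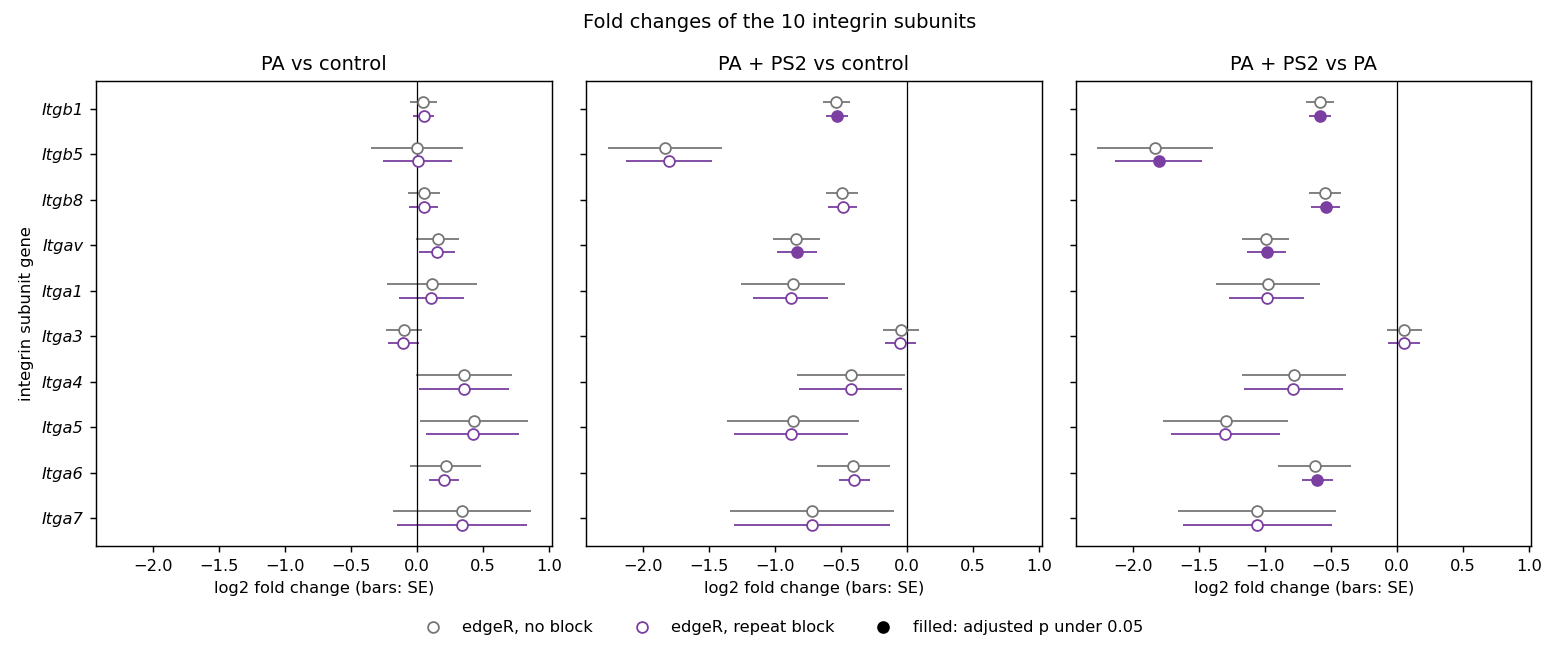
Log2 fold changes with standard errors of the 10 members in the 3 comparisons, without (grey) and with (purple) the repeat number as a block in edgeR; filled points have an adjusted p under 0.05 over all genes. No point is filled for PA against control, 2 purple points (Itgb1 and Itgav) are filled for PA + PS2 against control, and 5 for PA + PS2 against PA.

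Against PA, 9 of the 10 members were below 0 in PA + PS2, all but Itga3, beside 48.9% of all genes tested. Without the block edgeR called none of them. The 9 other integrin subunits tested had a median log2 fold change of -0.01 in this comparison, with 5 below 0. With the block Itgb1, Itgav, Itgb5, Itgb8 and Itga6 fell in PA + PS2 against PA, and the remaining members did not pass. Itgb1 was at 121 and 129 CPM in PA against 83.3 and 83.4 in PA + PS2, a log2 fold change of -0.58 ± 0.08 (block edgeR adjusted p = 0.00581). Itgav was at 15.8 and 20.4 CPM against 9.30 and 8.93 (-0.99 ± 0.15, block adjusted p = 0.00753). In both genes every PA library lay above every PA + PS2 library.

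Itgb5 was at 8.75 and 14.4 CPM in PA against 4.14 and 2.34 in PA + PS2 (-1.81 ± 0.33, block adjusted p = 0.0375). Itgb8 was at 117 and 131 CPM against 92.4 and 77.3 (-0.54 ± 0.11, block adjusted p = 0.0445). Itga6 was at 25.3 and 41.3 CPM against 19.1 and 24.2 (-0.60 ± 0.12, block adjusted p = 0.0242). For Itga6 the highest PA + PS2 library lay just under the lowest PA library, and the estimate without the block had a standard error of 0.28.

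Of the other members, Itga5 was at 4.74 and 2.71 CPM in PA and Itga1 at 5.26 and 3.50, each above both PA + PS2 libraries, with block adjusted p = 0.177 and 0.125 in edgeR. Itga4, at 1.87 and 2.05 CPM in PA, was likewise above both. Itga7 was at 0.775 and 1.70 CPM in PA and overlapped PA + PS2. Itga3 was at 36.3 and 33.5 CPM in PA, inside the PA + PS2 range, and its log2 fold change was 0.06 ± 0.14. This comparison shares its PA + PS2 libraries with the comparison against the control, so the 2 sets of values are not independent of each other.

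The median over the 10 members was -0.88 for PA + PS2 against PA, beside 0.00 over all genes tested. Of the members 9 were below 0, against 48.9% of all genes. Here too the choice of the members makes the contrast no test. Of the 10, 8 had both PA + PS2 libraries below both PA libraries, a pattern seen in 18.4% of all genes tested, and 8 were lower within both repeats, as were 27.7% of all genes. With the block edgeR called 5 of 10 lower, where 1.39% of all genes were called lower. Without the block edgeR called 0 of 10 and 0 of 17299 genes, with 6 members at an unadjusted p under 0.05. DESeq2 without the block called 4 (Itgb1, Itgav, Itgb5 and Itgb8), beside 1.01% of all genes in that direction. With the block DESeq2 called 4 (Itgb1, Itgav, Itgb8 and Itga6), beside 1.77% of all genes lower. Limma-voom, run without the block, called 0. With the block and 1 library left out, Itgb1 lost its call without PA + PS2 2 (adjusted p = 0.357), and Itgav without PA + PS2 2 (0.368) or PA 2 (0.0574). Itgb5 and Itgb8 lost theirs in 5 of the 6 such fits and passed without PA + PS2 1 (adjusted p = 0.00118 and 0.00309). Itga6 lost its call without control 1 (0.0928), control 2 (0.116), PA 2 (0.337) or PA + PS2 2 (0.604). The number of members called was then 3 without PA 1, 1 without PA 2, 2 without control 1, 2 without control 2, 0 without PA + PS2 2 and 5 without PA + PS2 1.

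The median over the members was below 0 in both repeats of both PA + PS2 comparisons, with different sizes. For PA + PS2 against the control the median difference over the 10 members was -0.36 in repeat 1 and -0.90 in repeat 2 (log2 CPM), and against PA it was -0.47 and -1.26. Itga3 changed sign between the repeats in both comparisons, at 0.20 and -0.30 against the control and 0.16 and -0.07 against PA. Itga7 changed sign against PA, at 0.14 in repeat 1 and -2.19 in repeat 2. Itgb1 was at -0.39 and -0.67 against the control and -0.53 and -0.63 against PA. Itgb5 was at -1.0 and -2.63 against the control. Both groups' own repeats enter these numbers: 7 of the 10 members were higher in repeat 2 than in repeat 1 in the control and 7 in PA, whereas 8 were lower in repeat 2 in PA + PS2. Over all genes tested, 51.5%, 49.6% and 50.3% were higher in repeat 2 in those groups. With 1 library per group and repeat, the difference between repeats has no test.

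**Figure D3:**
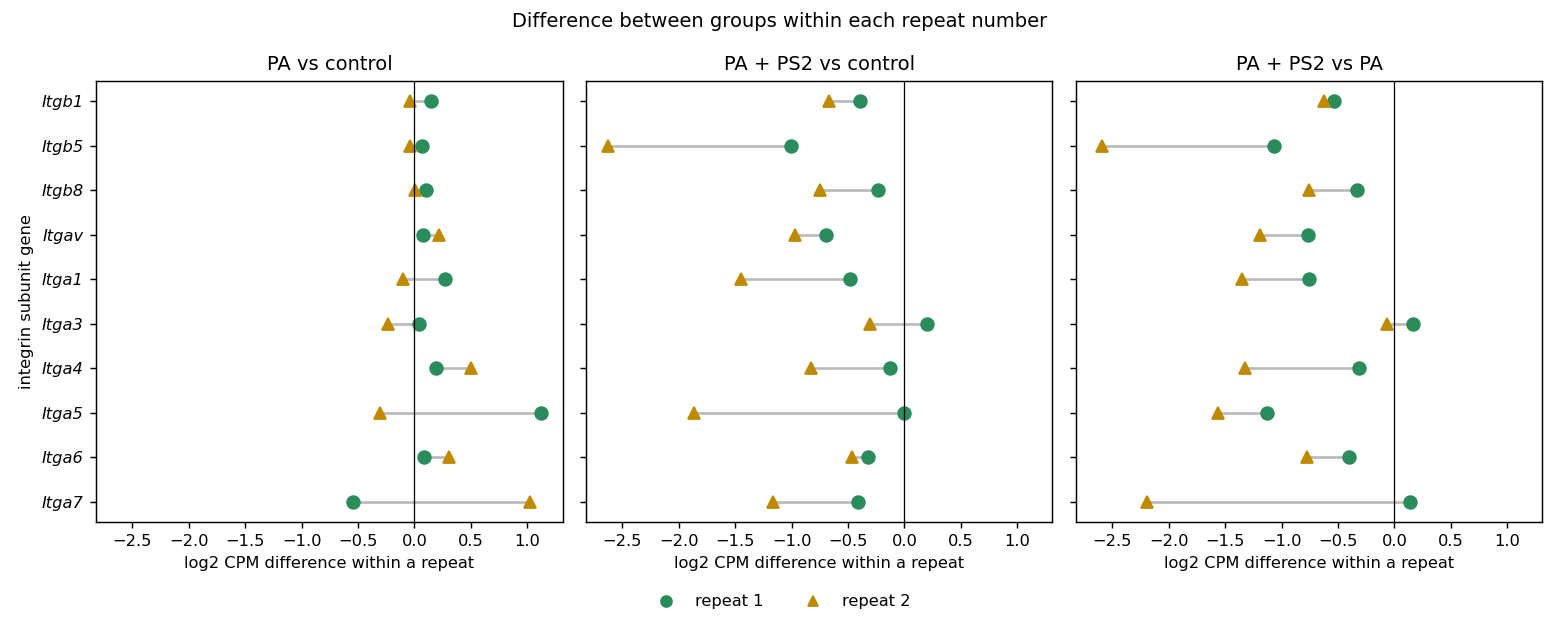
Difference in log2 CPM between 2 groups within repeat 1 (circles) and within repeat 2 (triangles) for each of the 10 members, in the 3 comparisons. For PA + PS2 against the control 9 genes lie below 0 in both repeats, with the repeat 2 value further from 0. Of these, Itga5 lies at -0.006 in repeat 1. Itga3 lies on both sides of 0.

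Itga3 made up a larger share of the alpha members in PA + PS2. Per exon length it took 65.2% and 59.2% of the summed level of the 7 alpha members in PA + PS2, against 55.4% and 51.8% in the control and 52.5% and 43.6% in PA. The share of Itgav was 7.94% and 8.80% in PA + PS2 and 12.2% to 14.2% in the other 4 libraries, and these ranges did not overlap. The laminin-binding subunits Itga3, Itga6 and Itga7 together made up 85.6% and 88% in PA + PS2 and 76.4% to 80.4% elsewhere. This sum leaves out Itga1, which binds collagen and laminin, at 1.52% and 0.758% in PA + PS2 and 1.40% to 2.34% elsewhere. Among the beta members, Itgb5 took 3.89% and 2.34% in PA + PS2 and 5.78% to 8.61% elsewhere. The ratio of Itgb8 to Itgb1 per exon length stayed within 0.342 to 0.409 in all 6 libraries, with the lowest and the highest value both in PA + PS2. These shares are a description with no test, and a share moves whenever any other member of the sum does.

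**Figure D4:**
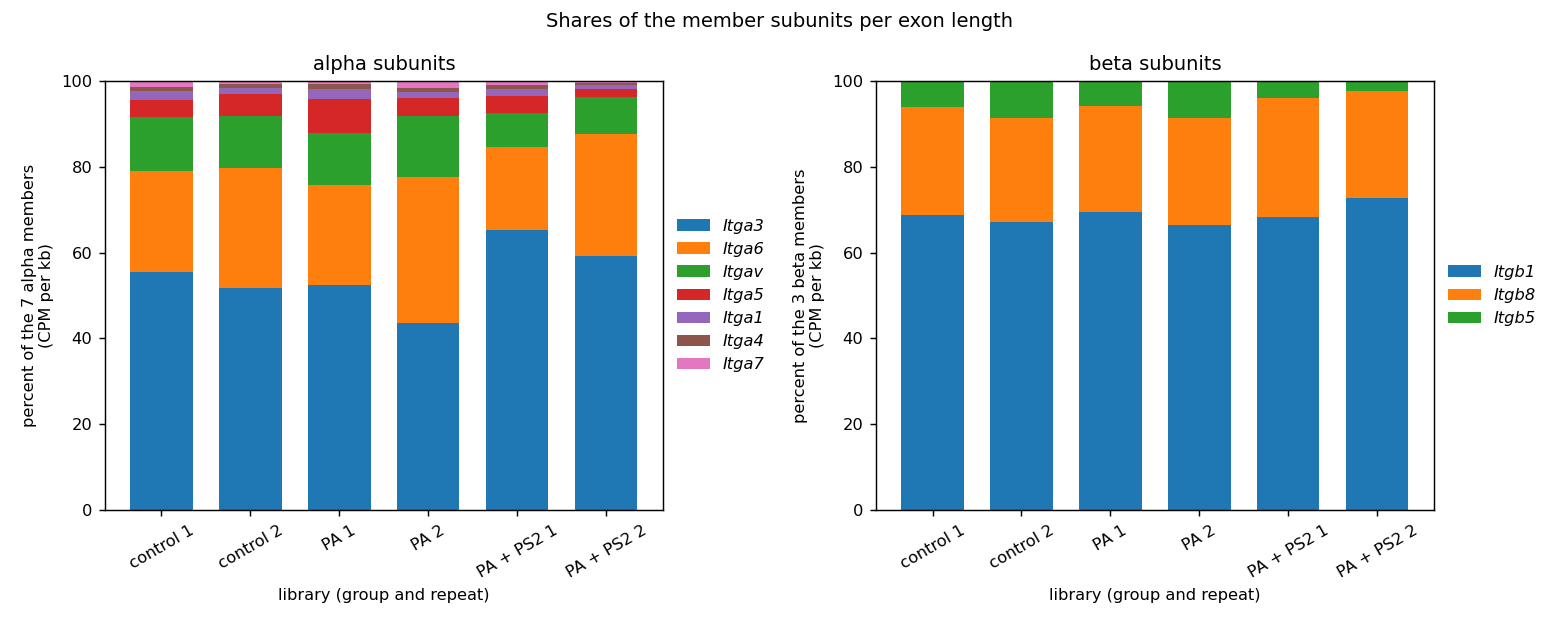
Shares (percent of CPM per kb of merged exon length) of each subunit within the 7 alpha members (left) and the 3 beta members (right), 1 bar per library. Itga3 holds 59.2% and 65.2% of the alpha sum in PA + PS2 against 43.6% to 55.4% elsewhere, and Itgb1 holds 66.5% to 72.8% of the beta sum in all 6 libraries.

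The genes most like Itgb1 and Itgav in their pattern over the 6 libraries were sought among 10776 genes of at least 5 CPM, by the root mean square difference of log2 CPM set against each gene's own mean. Closest to Itgb1 were Nr3c1, the glucocorticoid receptor (0.0405), Junb, an AP-1 subunit (0.0415), Eepd1 (0.0420), Lamc1, a laminin chain (0.0438), and Clu, which encodes clusterin (0.0517). Closest to Itgav were Gdf10 (0.101), Fam198b (0.101), Prc1, a spindle midzone protein (0.103), Arhgap31 (0.104) and Tacc3, a spindle protein (0.109). The markers of cycling cells given above were lower in the PA + PS2 libraries too, and their part in this likeness was not tested. Of the other members, Itgb8 lay nearest to Itgb1 (0.0795), followed by Itgav (0.187), and Itgb5 farthest (0.685).

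None of the other 16 integrin subunits was called in any comparison by edgeR, with or without the block, or by DESeq2. Of these, 9 passed the filter on low counts. The highest in CPM not divided by length were Itga8, a subunit for nephronectin and fibronectin, at 5.88 to 9.29 CPM, Itga9, a tenascin receptor subunit, at 3.95 to 6.18 CPM, and Itgb3, the other main partner of Itgav, at 0.839 to 1.79 CPM. The group means of Itga8 and Itga9 lay above those of the members Itga1, Itga5, Itga4 and Itga7 in every group. Itga8 was at 9.29 and 7.17 CPM in the control and 9.17 and 5.88 in PA + PS2, with overlapping groups. The 9 tested subunits had a median log2 fold change of 0.11 for PA + PS2 against the control, with 4 of 9 below 0. The 10 members had 10 of 10 below 0, and all genes tested 48.1%. Members were chosen with earlier results of these data known, so the contrast between the 2 sets is no test.

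Of 37 activation and adhesion adaptor genes 35 were tested. With the block edgeR called 1 lower in PA + PS2 against the control and 2 against PA, and 0 higher. Over all genes tested it called 0.538% and 1.39% lower. Dock1, a Rac activator recruited at adhesions, fell with the block to 2.58 and 2.18 CPM from 4.73 and 9.64 in the control (edgeR adjusted p = 0.0358) and from 6.0 and 12.4 in PA (0.00652). Kank2, a talin-binding protein, fell against PA with the block, to 0.892 and 1.1 from 2.74 and 3.78 CPM (0.0322). Flna, an actin crosslinker that binds beta tails, lay at 602 and 333 CPM in the control and 520 and 247 in PA + PS2, a gap between repeats larger than that between groups. Among core adaptors outside the naming rule, singled out after their values were seen, Tln1 (talin, which activates integrins) was at 37.6 and 43.9 CPM in the control and 32.6 and 24.7 in PA + PS2, and Vcl (vinculin) at 23.0 and 26.8 against 18.3 and 15.1. Both were lower without overlap, as were 17.1% of all genes tested, and neither passed (block edgeR adjusted p = 0.115 and 0.10 against the control). The other talin gene, Tln2, had more counts and overlapping groups, at 87.3 and 89.1 CPM in the control and 92.0 and 75.0 in PA + PS2. The focal adhesion partners Arhgef7 and Fyn were at 368 to 395 and 264 to 339 CPM over all libraries. The list's median was -0.19 against the control and -0.11 against PA. In these comparisons 26 and 24 of the 35 were below 0, against 48.1% and 48.9% of all genes. Without the block edgeR called none of these genes. DESeq2 called 2 lower against the control and 3 against PA, beside 0.636% and 1.01% of all genes.

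Integrin ligands were lower in PA + PS2 than the adaptors were, with a median of -0.78 against the control and -0.53 against PA. Of 31 ligand genes, all of them tested, 29 were below 0 in each comparison, against 48.1% and 48.9% of all genes. With the block edgeR called 3 lower against the control (Lamc1, Vcam1 and Ccn1) and 4 against PA (Lamb2 besides these), where it called 0.538% and 1.39% of all genes lower, and 0 higher. Without the block edgeR called 0 ligands, and DESeq2 called 5 lower against the control and 6 against PA, where it called 0.636% and 1.01% of all genes lower. Vcam1, a ligand of Itga4, fell with the block to 1.59 and 1.95 CPM from 3.39 and 6.64 in the control (edgeR adjusted p = 0.0361) and from 4.52 and 9.97 in PA (0.00487). Ccn1, a matricellular ligand of Itgav, fell to 11.3 and 9.09 CPM from 29.3 and 19.6 in PA (block adjusted p = 0.00581). Lamb2, a laminin beta chain, fell to 4.40 and 2.47 from 8.29 and 12 CPM in PA (0.0198). Lamb1, a laminin beta chain outside the naming rule, was above 0 in both comparisons (0.11 against the control and 0.23 against PA, without the block). It had more counts than Lamb2, at 31.6 to 45.6 CPM over all libraries, and did not pass. Lamc1 fell to 41.9 and 39.6 from 55.1 and 68.3 CPM in the control (0.0278) and from 58.5 and 61.6 in PA (0.0196). The ligands with the most counts, Reln, Fn1 and Edil3, did not pass, with Reln at 483 and 553 CPM in the control and 447 and 428 in PA + PS2, and Fn1 at 109 and 145 against 100 and 80.6 CPM. The marker sums of precursor, progenitor, cycling and mural cells given above were lower in the same libraries, and their part in the ligand values was not tested. Col1a1 and Col1a2 belong both to the ligand list and to the mural and fibroblast markers.

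In the list of latent TGF-beta and its activation, 11 of 12 genes were tested and none was called with or without the block in edgeR. DESeq2 called 1 lower against the control, beside 0.636% of all genes. The list's median was -0.48 against the control, with 9 of 11 below 0, and -0.39 against PA, with 7 of 11 below 0. Over all genes tested 48.1% and 48.9% were below 0. Ltbp2, a latent TGF-beta binding protein singled out after its values were seen, was at 3.51 and 5.12 CPM in the control and 1.24 and 0.617 in PA + PS2 (block edgeR adjusted p = 0.0576), and the receptor Tgfbr2, chosen likewise, at 2.89 and 2.02 against 0.956 and 0.974 (0.108). The 3 genes with the most counts did not pass. Tgfb2, a TGF-beta ligand, was at 17.5 and 19.7 CPM in the control and 19.4 and 22.1 in PA + PS2, Tgfbr1 at 46.6 and 47.1 against 62.0 and 55.5, and Ltbp4, a latent TGF-beta binding protein, at 37.3 and 34.9 against 40.8 and 31.1. Of 22 membrane partners and other laminin receptors 21 were tested. With the block edgeR called 1 of them lower in each PA + PS2 comparison, beside 0.538% and 1.39% of all genes. Cspg4, a proteoglycan that associates with integrins and marks oligodendrocyte precursors and pericytes, was the 1 gene called with the block. It fell to 0.892 and 0.941 CPM from 3.78 and 6.10 in the control (edgeR adjusted p = 0.00813) and from 3.61 and 5.05 in PA (0.00581). Sdc3 (a syndecan), Rpsa (a ribosomal protein also described as a laminin receptor) and Cd47 (integrin-associated protein) had the most counts of this list. They did not pass, at 666 and 786, 370 and 394, and 321 and 228 CPM in the control and 739 and 704, 384 and 466, and 323 and 209 in PA + PS2.

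**Figure D5:**
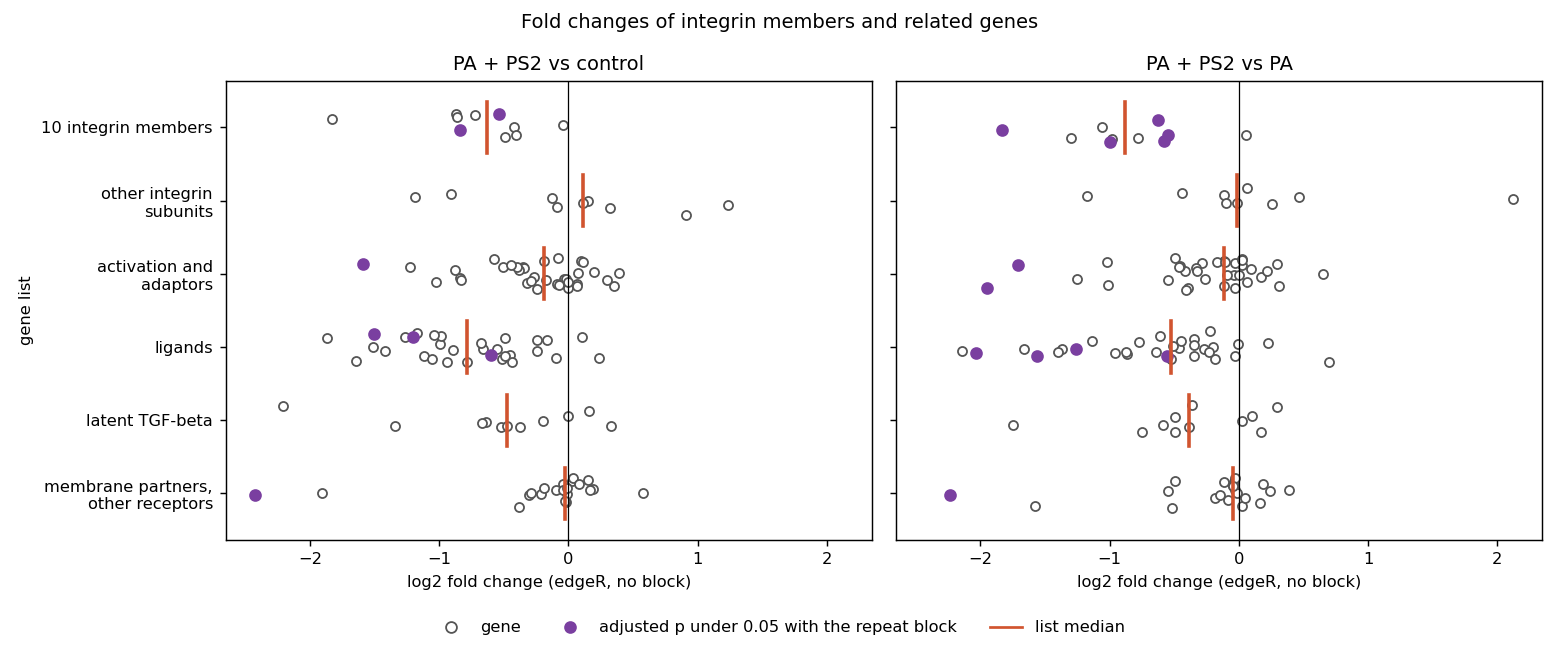
Log2 fold changes (edgeR without the block) of the 10 members and of the tested genes of 5 related lists for PA + PS2 against the control and against PA, with the list median as a bar; filled points passed with the repeat block. The medians of the members (-0.63 and -0.88) and of the ligands (-0.78 and -0.53) lie further from 0 than those of the adaptors (-0.19 and -0.11).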

How the data were processed

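Per the labels' protocols, RNA came from an RNeasy micro kit and went into TruSeq Total RNA libraries, although the molecule label says polyA RNA. The authors deposited raw counts for each Ensembl gene, with 1 file per library. Tools named in the submitters' processing notes are HTSeq 2.0.2, STAR 2.7.5, cutadapt 4.2 and DESeq2 1.14.1, with build mm10 (GRCm38). No role, setting, annotation release or strand setting is stated. Symbols (153 of 54232 genes lacked one), coordinates and exon lengths were taken from GENCODE M21.

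Counts were tested in edgeR 4.0.16 (R 4.3.3) with TMM factors and the default low-count filter for the 3 groups. A robust quasi-likelihood test was fitted in a single model over the 6 libraries, leaving 3 residual degrees of freedom. The threshold was a Benjamini-Hochberg adjusted p of 0.05 over the 17299 genes kept, and standard errors follow from the fold change and the F statistic. Log2 CPM used a prior count of 2. The alternatives were RLE factors, library totals, no filter, 50 counts in 2 libraries, DESeq2 1.42.0, limma-voom (limma 3.58.1), edgeR's legacy test, the compared groups alone, the repeat block, and each library left out. Where that left a group with 1 library, the library was assumed to vary like the others. The code was tested on simulated data. No library was counted as a duplicate, since repeats differed by more than sampling noise (chi-square over its degrees of freedom 15.5 to 22.3).

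To see whether repeat numbers pair the libraries, the difference between repeats was correlated over genes for each pair of groups. The coefficient was 0.35 for the control with PA, 0.36 for the control with PA + PS2, and 0.21 for PA with PA + PS2. Each exceeds 0.1, so the numbers were taken as pairs, from the data and not from any label. Such a correlation cannot establish pairing, since unpaired libraries that differ along a shared axis could also give it. Every edgeR call of a member rests on the block. Of the 10 members, 7 were higher in repeat 2 in the control, 7 in PA and 2 in PA + PS2. The block leaves 2 residual degrees of freedom, and the biological coefficient of variation was 9.57% with it and 16.7% without.

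Named genes were the 10 members, genes of 5 related lists that passed with or without the block or were among the 3 with the highest mean CPM of their list, and the 5 genes most like Itgb1 and Itgav. Members and lists were chosen with earlier results of these data known.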

Additional observations from a re-analysis of the deposited data

How the results depend on the processing

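Without the block, edgeR called 0 of the 10 members in all 3 comparisons under RLE factors, library totals, no filter, the filter of 50 counts, the legacy test and the compared groups alone, and so did limma-voom. For PA + PS2 against the control, all genes called (and members) numbered 117 (2) with the repeat block, 130 (3) in DESeq2, 279 (3) in DESeq2 with the block, 105 (2) with RLE and the block and 42 (1) with the filter of 50 counts and the block. For PA + PS2 against PA these were 280 (5), 200 (4), 364 (4), 266 (4) and 188 (3). For PA against the control, DESeq2 with the block called 1 gene, no member, and the other block fits on 6 libraries 0.

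With each library left out and no block, 0 genes were called, except 7 (no member) for PA + PS2 against the control without PA + PS2 1, a range of 0 to 7. With the block, PA + PS2 against the control gave 503 genes (4 members) without PA 1, 560 (4) without PA 2, 522 (4) without PA + PS2 1, 61 (0) without control 1, and 0 (0) without control 2 or PA + PS2 2. Against PA it gave 626 (3), 96 (1), 608 (5) and 132 (2) in that order, 102 (2) without control 2 and 0 (0) without PA + PS2 2. PA against the control gave 10 genes without PA 1, 12 without PA 2 and 0 otherwise, with no member.

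For both PA + PS2 comparisons, all members except Itga3 kept their direction in every fit that gave a value. With libraries left out, Itga3 ranged from -0.23 to 0.12 against the control and from -0.12 to 0.22 against PA. With the block as well it turned to 0.13 without PA + PS2 2 and 0.14 without control 2 in the former, and to -0.13 without PA + PS2 1 in the latter. Itga7 had no value under the filter of 50 counts.

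For PA against the control, Itgb5 was at 0.00 and turned to -0.0042 (RLE), -0.0083 (no filter), -0.0076 (50 counts), -0.0057 (DESeq2), -0.00058 (compared groups alone), -0.0018 (DESeq2 with block), -0.0019 (RLE with block) and -0.0051 (50 counts with block). With libraries left out, that comparison ranged from -0.085 to 0.18 (Itgb1), -0.42 to 0.46 (Itgb5), -0.074 to 0.18 (Itgb8), -0.052 to 0.32 (Itgav), -0.21 to 0.37 (Itga1), -0.024 to 0.79 (Itga5), -0.19 to 0.52 (Itga6) and -0.35 to 0.79 (Itga7). With the block as well, turns came without control 1 (Itgb1 -0.062, Itgb5 -0.26, Itgb8 -0.094, Itga1 -0.23, Itga5 -0.40), without PA 2 (Itgb5 -0.20, Itgb8 -0.041, Itga7 -0.71), without control 2 (Itga3 0.089, Itga7 -0.058), without PA 1 (Itga5 -0.020) and without PA + PS2 1 (Itgb5 -0.0069). The causes of these turns were not tested. In CPM not divided by length, Itgb5 and Itgav, Itga5 and Itga1, and Itga7 and Itga4 change places in the order of levels. Low members such as Itga7 rest on 10 to 54 counts a library, which limits what could be detected.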

Other observations

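Ilk, the integrin-linked kinase that binds beta subunit tails, was at 0.0968 to 0.252 CPM in the 6 libraries, and did not pass the filter on low counts. Its exons (chromosome 7, 105736592 to 105742925, GRCm38) share 89.7% of their 2744 bases with Rrp8 and Taf10 on the opposite strand. Whether this overlap bears on its level was not tested, and the strand setting of the counting was not stated. Ilk was singled out after its values were seen. By contrast the focal adhesion kinase Ptk2 was at 152 to 156 CPM in all 6 libraries.

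Itgb2, the leukocyte beta subunit, was at 1.2 CPM in PA + PS2 2 and 0.129 to 0.417 CPM in the other 5 libraries, and was also singled out after its values were seen. Tyrobp, a myeloid marker outside the naming rule, was at 0.747 CPM in PA + PS2 2 and 0.0315 to 0.357 CPM elsewhere. Csf1r, Ptprc and P2ry12 were also highest there, at 0.649, 0.877 and 0.0649 CPM against at most 0.442, 0.863 and 0.0631 elsewhere. The myeloid markers Aif1, Cx3cr1 and C1qa were not, at 2.30, 0.195 and 0.422 CPM there. Elsewhere these ran from 2.08 to 3.60, 0 to 0.742 and 0.191 to 0.599 CPM. All rest on few counts.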
